A study of Mus musculus with 18 samples.

Results

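The genes described here are 10 mouse genes that handle lipid in macrophages, chosen by name out of 20298 genes in a table of expression values. *Apoe*, *Abca1* and *Abcg1* move cholesterol out of the cell. *Nr1h3* and *Pparg* encode nuclear receptors that sense lipids. *Lpl*, *Fabp4*, *Fabp5* and *Plin2* act in the release, binding and storage of fatty acids. *Trem2* encodes a surface receptor for lipids. All 10 symbols were found in the table, 1 row for each.

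Macrophages take up lipoproteins, cell debris and dying cells, and must store or export the cholesterol and fatty acids that these contain. Oxidized derivatives of cholesterol bind the liver X receptors, of which LXRα is the product of *Nr1h3*, and the receptors then raise transcription of the cholesterol exporters *Abca1* and *Abcg1* and of *Apoe*, whose secreted protein carries the exported lipid. Fatty acids bind PPARγ, the product of *Pparg*, for which *Fabp4* and *Plin2* are classical targets. GM-CSF drives monocytes towards dendritic cells and macrophages and signals through the transcription factor STAT5, and it is known for maintaining PPARγ and lipid clearance in alveolar macrophages.

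RNA was sequenced from 18 libraries, 3 in each of 6 groups. Monocytes from mice labelled C57BL/6, either WT or DKI, were left untreated (day 0) or were grown for 3 or 6 days in GM-CSF at 20 ng/mL to give monocyte-derived cells (MDCs). In DKI mice, knockin mutations change the N-domain of both *Stat5a* and *Stat5b*, so that STAT5 forms dimers but not tetramers, and every cell of the animal carries them. The monocytes were enriched by negative selection rather than sorted, and WT and DKI cells alike were cultured with fetal bovine serum. The series description states that the experiment was done independently 3 times, but no source used here says which libraries share an animal or a culture, and p-values measure the spread between these libraries.

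The values are RPKM, reads scaled to the length of the gene and to the mapped reads of the library. Each library held from 29.5 M to 43.2 M mapped reads, a depth recovered from the values of single-exon receptor genes. Liver is the tissue given in the labels, and bone marrow is the one given in the series description and in the study's methods. Of 7 hepatocyte markers, 6 were under 1 RPKM in all 18 libraries, with *Alb*, *Ttr* and *Serpina1a* at 0, and only *Trf*, which other cells also express, was higher. The Kupffer cell markers *Clec4f* and *Timd4* were at most 0.032 RPKM, and the 4 Kupffer markers in the table summed to between 1.52 and 30.5 RPKM at day 6. All 5 monocyte markers were expressed at day 0, with sums between 2358 and 3247 RPKM. The 5 adipocyte markers, which matter here because adipocytes express *Lpl*, *Pparg*, *Fabp4* and *Plin2*, summed to at most 3.19 RPKM at day 0 and to at most 0.230 RPKM later. In these bulk samples, fewer cells of a type and less RNA per cell cannot be told apart.

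Some libraries stood apart. *Ly6c2*, a marker of undifferentiated monocytes, was at 775 RPKM in DKI day 3 replicate 1 and at 158 RPKM in DKI day 6 replicate 1, whereas the other day 3 and day 6 libraries had between 5.30 and 73.8 RPKM. *Ccr2*, the chemokine receptor of classical monocytes and a gene of the same list, was instead lowest of its day in these libraries, at 32.5 RPKM (83.0 to 395 RPKM in the others of day 3) and 33.3 RPKM (73.9 to 168 RPKM in the others of day 6). The names of the replicate 1 libraries of days 3 and 6 carry an earlier year than those of all others, in WT and DKI alike. Neutrophil and precursor markers, 7 genes, summed to between 1203 and 1598 RPKM at day 0, to between 5.26 and 529 RPKM in WT (median 25.5) and between 40.9 and 515 RPKM in DKI MDCs (median 428) at day 3, and to between 3.98 and 167 RPKM in WT (median 11.4) and between 11.1 and 540.0 RPKM in DKI MDCs (median 19.9) at day 6. The 5 monocyte markers summed to between 1464 and 2415 RPKM in DKI and between 799 and 1191 RPKM in WT MDCs at day 3, and to between 1378 and 1705 RPKM in DKI and between 622 and 1125 RPKM in WT MDCs at day 6. The monocyte marker sums did not overlap between the genotypes after GM-CSF, but at day 6 *Itgam* (343 to 598 RPKM in WT, 625 to 981 RPKM in DKI) was the only one of the 5 genes that did not overlap, and at day 3 *Ccr2* overlapped and the other 4 did not. *Itgam* itself was lower at day 0 (161 to 210 RPKM), and the part of either list in the results below was not tested. The DKI against WT values without the 2 libraries of high *Ly6c2* are given below.

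*Apoe* (Entrez gene 11816) lies on chromosome 7 from 19696244 to 19701310 in mm10, *Abca1* (11303) on chromosome 4 from 53030789 to 53159988 and *Plin2* (11520) on the same chromosome from 86626910 to 86670217. *Abcg1* (11307) and *Trem2* (83433) lie on chromosome 17, from 31057694 to 31117984 and from 48346401 to 48352276. *Fabp5* (16592) and *Fabp4* (11770) lie near each other on chromosome 3, from 10012585 to 10016610 and from 10204342 to 10208616. *Nr1h3* (22259) lies on chromosome 2 from 91184061 to 91202829, *Pparg* (19016) on chromosome 6 from 115360879 to 115490404, and *Lpl* (16956) on chromosome 8 from 68880555 to 68906932. Reads were counted over the exons of each gene, and the exonic length recovered from the values ranged from 642 bases for *Fabp4* to 10260 bases for *Abca1*.

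Because 2 of the genes encode lipid-sensing receptors and others are known targets of these, the promoters were searched for the repeats that the receptors bind. RefSeq (GRCm38.p6) promoter windows of 300 bases, from 250 before to 50 after a transcription start, were at hand for 6 of the genes, *Apoe*, *Abca1*, *Nr1h3*, *Pparg*, *Plin2* and *Trem2*, in 11 windows. A gene can have several annotated starts, and the windows of *Apoe*, *Abca1* and *Plin2* that hold the matches below belong to starts inside the span of the gene given above. None of them held, on either strand, the STAT5 consensus TTCNNNGAA, the PPAR repeat (AGGTCA repeated after 1 base) or the LXR repeat (AGGTCA repeated after 4 bases) when at most 1 mismatch was allowed in each AGGTCA. Of all 32851 windows, 8.3%, 2.4% and 1.75% held these. A looser search, which was chosen after that result was seen and allowed 3 mismatches over both AGGTCA, is met by 24.6% of all windows for the PPAR repeat and 21.9% for the LXR repeat. Its matches upstream of a start are printed below with 7 bases on each side, on the strand of the gene and with the match in capitals, which may read as the reverse complement. They are the LXR repeat of *Abca1*, 67 to 52 bases before the start, the PPAR repeat of *Apoe*, 28 to 16 bases before the start, and 2 PPAR repeats of *Plin2*, 225 to 213 and 161 to 149 bases before the start. It had 2 further matches, 1 of *Apoe* after the start and 1 of *Pparg* across it, which are not printed. No match overlapped another, and a match describes the letters only. The 4 stretches are:
*Abca1* (chr4:53159940-53159969, minus strand): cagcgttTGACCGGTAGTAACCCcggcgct
*Apoe* (chr7:19699197-19699223, minus strand): gagcgggGGGTCACAAGGCAtccaaac
*Plin2*, upstream match (chr4:86670265-86670291, minus strand): gctttcaGGACCCCTGACCTaagtcag
*Plin2*, downstream match (chr4:86670201-86670227, minus strand): cttgtacTGATCTGGGATCTcagggca

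Before GM-CSF the WT and DKI values of all 10 genes overlapped, as they did for nearly all genes (1.03% of 9179 fitted genes did not overlap), and several genes varied more with the replicate number than with the genotype. *Plin2*, the coat protein of lipid droplets, was at 81.8, 104 and 105 RPKM in WT replicates 1 to 3 and at 80.4, 103 and 112 RPKM in DKI replicates 1 to 3. *Trem2* was at 23.9, 35.2 and 36.0 RPKM in WT and at 20.6, 30.8 and 36.2 RPKM in DKI monocytes. Both were steady, with the lowest value in replicate 1 of each genotype.

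Other members differed widely between replicates of a genotype at day 0, and in the same way in both. *Fabp4*, a cytosolic carrier of fatty acids, was at 10.04, 1.77 and 0.191 RPKM in WT and at 9.18, 2.02 and 0.264 RPKM in DKI monocytes. *Pparg* was at 19.3, 7.92 and 0.929 RPKM in WT and at 16.6, 6.46 and 0.734 RPKM in DKI monocytes. *Abca1* was at 20.5, 11.03 and 1.07 RPKM in WT and at 16.0, 10.2 and 1.41 RPKM in DKI monocytes. *Nr1h3* followed the same order, with 3.52, 1.18 and 0.483 RPKM in WT and 3.32, 1.30 and 0.382 RPKM in DKI monocytes. The highest of these values exceeded the lowest by 7.29-fold (*Nr1h3*) to 52.5-fold (*Fabp4*) within WT, and replicate 1 was the highest and replicate 3 the lowest in each case. *Abcg1*, a second cholesterol exporter, was also highest in replicate 1 (38.2, 8.20 and 10.7 RPKM in WT; 28.9, 13.4 and 12.9 RPKM in DKI), as was *Fabp5* (6.05, 2.10 and 3.06 RPKM; 5.22, 1.86 and 2.43 RPKM). *Apoe* and *Lpl* were instead highest in replicate 2 of both genotypes.

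**Figure D1:**
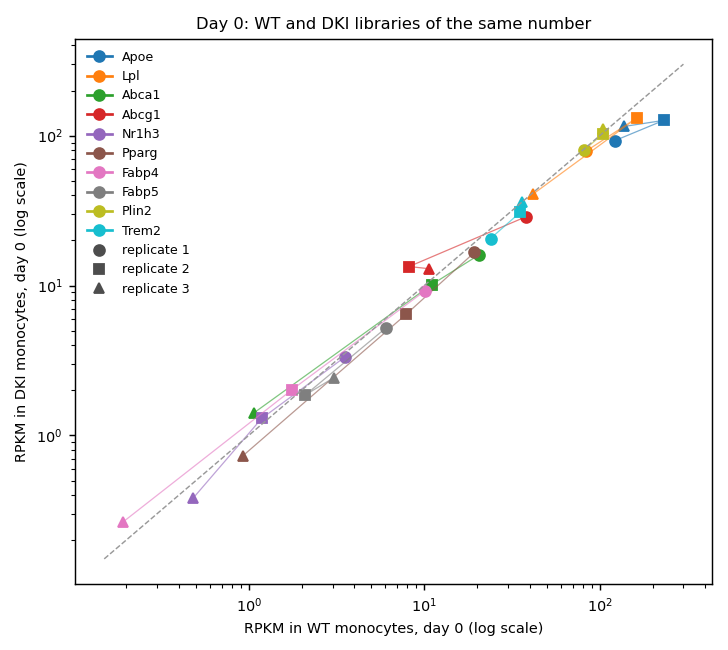
RPKM of the 10 genes in untreated DKI monocytes (y axis, log scale) against WT monocytes (x axis, log scale) of the same replicate number, with 1 colour for each gene, 1 marker shape for each replicate, thin lines joining the replicates of a gene and a dashed line where both are equal. The points stay near the dashed line while *Fabp4*, *Pparg*, *Abca1* and *Nr1h3* spread along it, from 0.191 to 10.04 RPKM in WT for *Fabp4*.

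None of the 9 members that could be fitted was called between DKI and WT at day 0, where 0% of 9179 genes were called with limma (44 had an unadjusted p under 0.05). To be called, a gene had to change by more than 1.5-fold with a Benjamini-Hochberg adjusted p under 0.05, and genes were fitted where the mean of at least 1 group was above 2 RPKM, a level that *Nr1h3* did not reach at day 0. The log2 fold changes lay between -0.51 ± 0.27 for *Apoe* (SE, the standard error, 3 libraries against 3) and 0.17 ± 0.61 for *Abcg1*, and the WT and DKI values overlapped for all 10. The SEs of *Fabp4*, *Abca1* and *Pparg*, 1.04 to 1.13, come from the fit without pairs. Within same-numbered pairs DKI was 0.914, 1.14 and 1.38 times WT for *Fabp4*, 0.781, 0.92 and 1.32 times for *Abca1* and 0.861, 0.815 and 0.79 times for *Pparg*. *Apoe*, *Lpl*, *Pparg* and *Fabp5* were below WT in all 3 pairs. The share of all genes below WT in every pair was not counted, so nothing is read from this. Of all fitted genes, 47.9% had a log2 fold change above 0 at day 0.

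After GM-CSF, 8 of the 10 genes were higher in each of 3 DKI libraries than in each of 3 WT libraries at day 3, namely *Apoe*, *Abca1*, *Nr1h3*, *Pparg*, *Fabp4*, *Fabp5*, *Plin2* and *Trem2*. Of all 9740 fitted genes, 13.4% had DKI values all above the WT values. At day 6 this held for 5 members, *Apoe*, *Nr1h3*, *Pparg*, *Plin2* and *Trem2*, and for 10.6% of 9842 fitted genes. The members were chosen with earlier results of these data known, so setting their counts beside these shares is no test. The test called 3 members at day 3, *Apoe*, *Nr1h3* and *Fabp4*, and 3 at day 6, *Apoe*, *Pparg* and *Trem2*, and all were higher in DKI MDCs. *Nr1h3* passed the filter on RPKM only through the DKI groups, so its part in these counts is not taken as support. Called higher were 3.21% of all fitted genes at day 3 and 2.72% at day 6, and all fitted genes had medians of -0.11 and -0.17 on the log2 scale. At day 6 the calls over all genes were 268 higher and 474 lower, and became 323 higher and 285 lower when each library was centred on its median, with 3 members called either way. *Lpl* and *Abcg1* overlapped between the genotypes on both days.

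**Figure D2:**
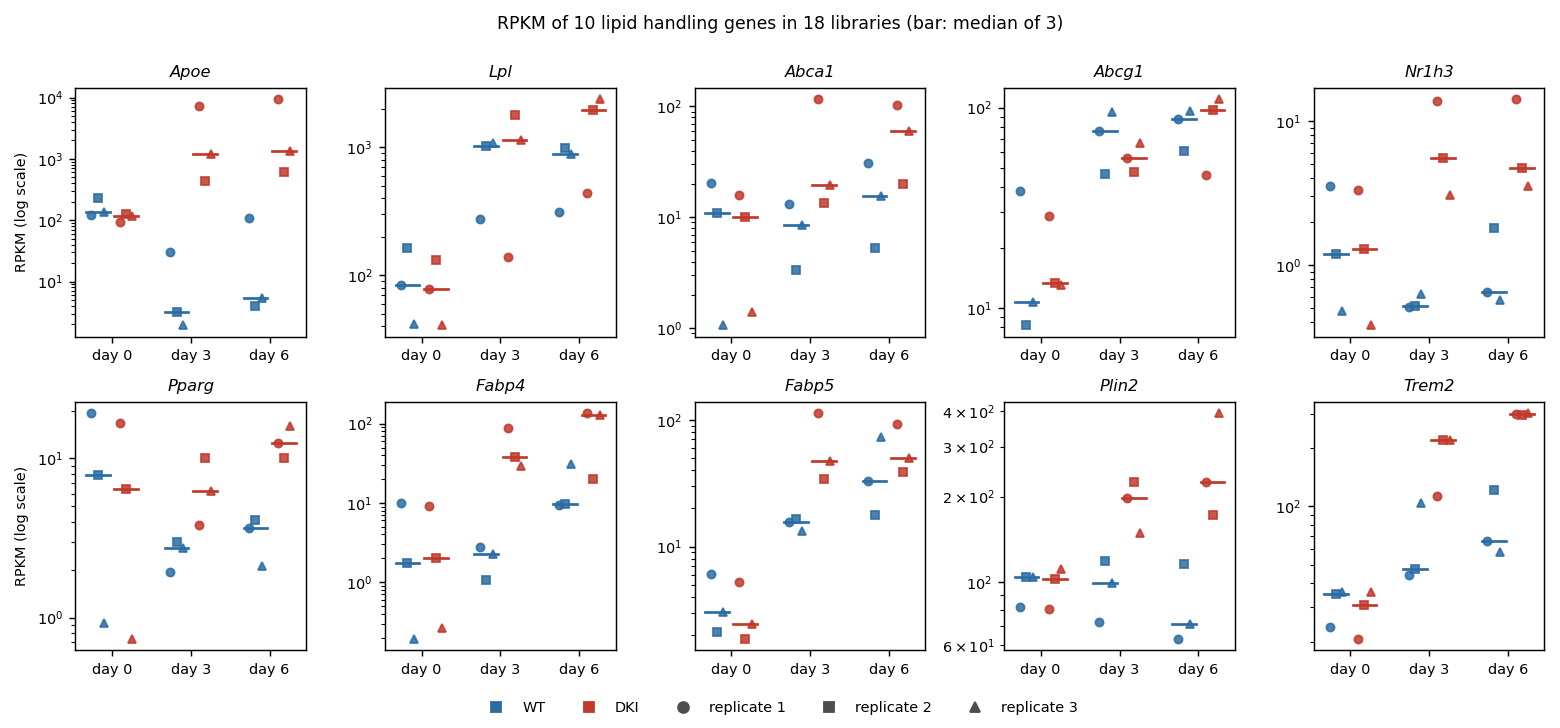
RPKM (y axis, log scale) of each gene at day 0, day 3 and day 6 in WT (blue) and DKI (red) libraries, with marker shapes for the replicate number and a bar at the median of 3. *Apoe* separates the genotypes by far the most at days 3 and 6, while *Lpl* and *Abcg1* overlap there and all 10 genes overlap at day 0.

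*Apoe*, the lipoprotein that macrophages secrete to carry cholesterol, moved in opposite directions in the genotypes. On day 0 it was at 122, 232 and 138 RPKM in WT and at 92.6, 126 and 115 RPKM in DKI monocytes. On day 3 it was down to 30.5, 3.23 and 1.94 RPKM in WT MDCs and up to 7177, 440.5 and 1205 RPKM in DKI MDCs. By day 6 WT MDCs had 107, 3.98 and 5.39 RPKM against 9422, 600.3 and 1321 RPKM in DKI MDCs. All DKI values were above all WT values on both days. By RPKM, *Apoe* ranked 4th, 104th and 23rd of all genes in the DKI libraries of day 3 and 2541st, 8667th and 9256th in the WT libraries.

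*Apoe* differed between DKI and WT MDCs by 7.74 on the log2 scale (SE 1.25, adjusted p = 0.0213 from limma) at day 3 and 7.02 (SE 1.46, adjusted p = 0.041) at day 6 (log2 of RPKM + 1, which understates the change of genes with few reads). Within pairs of the same replicate number, DKI exceeded WT 235-, 136- and 621-fold at day 3 and 88.0-, 151- and 245-fold at day 6. Replicate 1 was the highest of its group on both days in both genotypes, and within a genotype the libraries of day 3 spanned 15.7-fold in WT and 16.3-fold in DKI MDCs. The adjusted p at day 3 was 0.0812 without WT replicate 2 and 0.0739 without WT replicate 3. At day 6 it was 0.0798, 0.111, 0.0865 and 0.144 without DKI replicate 1, DKI replicate 3, WT replicate 2 and WT replicate 3. Without the filter on RPKM it was 0.112 at day 3 and 0.147 at day 6, and with voom on reads recovered from the values it was 0.0553 at day 6.

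*Abca1*, which loads cholesterol onto apolipoproteins at the cell surface, was higher in the DKI member of every pair, but its spread between replicates was large. On day 3 it was at 13.1, 3.33 and 8.49 RPKM in WT and at 117, 13.5 and 19.4 RPKM in DKI MDCs. WT MDCs had 31.0, 5.25 and 15.6 RPKM at day 6, and DKI MDCs had 104, 20.0 and 60.6 RPKM. Replicate 1 was highest and replicate 2 lowest in each group of both days. The test called it on neither day, with a log2 fold change of 1.97 (SE 0.84, adjusted p = 0.199) at day 3 and 1.79 (SE 0.77, adjusted p = 0.185) at day 6. Without DKI day 3 replicate 1 the day 3 value was 1.05 (adjusted p = 0.263), and without DKI day 6 replicate 1 the day 6 value was 1.27 (adjusted p = 0.359). Within pairs the DKI values were 3.36, 3.81 and 3.90 times the WT values at day 6, and with the replicate number as a block the adjusted p was 0.0124 at day 6 and 0.0697 at day 3.

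*Abcg1*, which exports cholesterol to high-density lipoprotein, did not separate the genotypes. On day 3 it was at 76.0, 46.4 and 95.0 RPKM in WT and at 56.1, 47.7 and 66.4 RPKM in DKI MDCs. On day 6 it was at 87.2, 60.9 and 96.6 RPKM in WT and at 46.0, 96.8 and 110.1 RPKM in DKI MDCs. The groups overlapped on both days. Its log2 fold change was -0.30 (SE 0.29, adjusted p = 0.546) at day 3 and -0.02 (SE 0.37, adjusted p = 0.975) at day 6. The sign at day 6 turned to 0.12 when libraries were centred on their medians.

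*Nr1h3*, which encodes LXRα, was low in WT and several times higher in DKI MDCs. On day 3 it was at 0.515, 0.522 and 0.626 RPKM in WT and at 13.7, 5.56 and 3.04 RPKM in DKI MDCs. WT MDCs had 0.646, 1.81 and 0.568 RPKM at day 6, and DKI MDCs had 14.2, 4.71 and 3.56 RPKM. The lowest DKI value exceeded the highest WT value on both days, and replicate 1 was the highest DKI library each time. DKI differed from WT by a log2 fold change of 2.23 (SE 0.46, adjusted p = 0.0393) at day 3 and 1.92 (SE 0.49, adjusted p = 0.0638) at day 6. It passed the filter on RPKM only through the DKI groups, since its WT means were 0.554 and 1.01 RPKM, so its call at day 3 is not counted as support. With the replicate number as a block the adjusted p at day 3 was 0.0599. It was 0.0801, 0.125, 0.119 and 0.115 without DKI replicate 2, WT replicate 1, WT replicate 2 and WT replicate 3, 0.143 without the filter on RPKM, 0.132 with voom on reads recovered from the values (log2 fold change 3.52) and 0.0507 with quantile normalization. At day 6 it was 0.0295 when all 18 libraries shared the estimate of the spread, and as high as 0.27 with libraries left out.

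*Pparg*, which encodes PPARγ, was also higher in all DKI libraries. At day 3 it was at 1.94, 3.00 and 2.74 RPKM in WT and at 3.79, 10.03 and 6.28 RPKM in DKI MDCs. On day 6 it was at 3.67, 4.12 and 2.10 RPKM in WT and at 12.5, 10.1 and 16.0 RPKM in DKI MDCs. In contrast to *Nr1h3*, the DKI library of replicate 1 was the lowest of its group at day 3. DKI differed from WT by 1.04 (SE 0.32, adjusted p = 0.107) at day 3 and 1.70 (SE 0.25, adjusted p = 0.0217) at day 6. Without DKI day 3 replicate 1, the library with high *Ly6c2*, the day 3 value was 1.34 (adjusted p = 0.0378). With other libraries left out the day 3 adjusted p was as high as 0.34. At day 6 the adjusted p was 0.0536, 0.0733, 0.0756 and 0.0616 without DKI replicate 1, DKI replicate 3, WT replicate 1 and WT replicate 3, 0.0976 without the filter on RPKM and 0.151 when all 18 libraries shared the estimate of the spread.

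*Fabp4* gave the smallest adjusted p of the 10 genes at day 3. It was at 2.74, 1.08 and 2.28 RPKM in WT and at 87.4, 37.5 and 28.9 RPKM in DKI MDCs. WT MDCs had 9.35, 9.65 and 30.9 RPKM at day 6, and DKI MDCs had 137, 20.2 and 130.2 RPKM. The groups were far apart at day 3 and overlapped at day 6, where WT replicate 3 was above DKI replicate 2. As a log2 fold change this was 3.99 (SE 0.44, adjusted p = 0.00826) at day 3 and 2.26 (SE 0.82, adjusted p = 0.134) at day 6. No single library ended the call at day 3, whereas leaving out both libraries of replicate 2 or of replicate 3 did (adjusted p = 0.0847 and 0.0743), as did the fit without the filter on RPKM (0.0576) and voom on recovered reads (4.62, adjusted p = 0.0581). Without DKI day 6 replicate 2 the day 6 value was 3.14 (adjusted p = 0.0271). With other libraries left out the day 6 adjusted p was as high as 0.489.

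*Fabp5*, a second fatty acid carrier encoded near *Fabp4*, was at 15.8, 16.4 and 13.2 RPKM in WT and at 113, 33.9 and 47.0 RPKM in DKI MDCs at day 3. On day 6 it was at 32.9, 17.6 and 73.6 RPKM in WT and at 92.2, 38.7 and 49.9 RPKM in DKI MDCs. It separated the genotypes at day 3 but overlapped at day 6, where replicate 3 was higher in WT. The genotypes differed by 1.84 (SE 0.42, adjusted p = 0.052) at day 3 and 0.67 (SE 0.55, adjusted p = 0.461) at day 6. The day 3 adjusted p was 0.0194 without DKI replicate 1, 0.0425 without DKI replicate 2, 0.0292 with all 18 libraries in one fit, 0.0499 with a pseudocount of 0.1 and 0.0483 with quantile normalization. With other libraries left out it was as high as 0.235. The proteins of the FABP family are alike in sequence, and how reads matching several genes were handled is not given in the sources used here.

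*Lpl*, the secreted lipase that frees fatty acids from triglyceride-rich lipoproteins, was abundant in both genotypes. At day 3 it was at 275, 1026 and 1071 RPKM in WT and at 139, 1780.3 and 1146 RPKM in DKI MDCs. WT MDCs had 310.5, 991 and 886 RPKM at day 6, and DKI MDCs had 443, 1948 and 2377 RPKM. Replicate 1 was the lowest of every one of these groups, the reverse of *Apoe* and *Abca1*. As a log2 fold change the genotypes differed by -0.03 (SE 1.04, adjusted p = 0.989) at day 3 and 0.97 (SE 0.75, adjusted p = 0.431) at day 6, with DKI above WT in all 3 pairs at day 6. Without DKI replicate 1 they were 1.09 (adjusted p = 0.363) at day 3 and 1.73 (adjusted p = 0.136) at day 6. The day 3 value turned to 0.05 when libraries were centred on their medians, so no direction is given for it.

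*Plin2* had all DKI values above all WT values on both days. On day 3 it was at 72.2, 119 and 99.5 RPKM in WT and at 198, 226 and 148 RPKM in DKI MDCs. On day 6 it was at 63.1, 115 and 71.1 RPKM in WT and at 226, 172 and 394 RPKM in DKI MDCs. The DKI values ranged from 148 to 394 RPKM and the WT values from 63.1 to 119 RPKM. As a log2 fold change this was 0.98 (SE 0.26, adjusted p = 0.0734) at day 3 and 1.62 (SE 0.37, adjusted p = 0.0504) at day 6, and neither was called. The adjusted p at day 6 was 0.0381 without DKI replicate 2 and 0.0492 with a pseudocount of 0.1, and with all 18 libraries in one fit it was 0.0421 at day 3 and 0.00239 at day 6. With libraries left out it was as high as 0.253 at day 3 and 0.301 at day 6.

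*Trem2*, which binds lipids, lipoproteins and apolipoprotein E and signals through the adaptor encoded by *Tyrobp*, was at 44.3, 47.7 and 104 RPKM in WT and at 113, 221 and 219 RPKM in DKI MDCs at day 3. WT MDCs had 66.5, 121 and 58.2 RPKM at day 6, and DKI MDCs had 300.3, 298 and 304 RPKM. The lowest DKI value at day 3 was close to the highest WT value, whereas the DKI values at day 6 lay within 1.02-fold of each other and well above WT. The log2 fold change was 1.53 (SE 0.42, adjusted p = 0.0801) at day 3 and 1.94 (SE 0.29, adjusted p = 0.0217) at day 6. Without DKI day 3 replicate 1 the day 3 value was 1.85 (adjusted p = 0.0489), and with all 18 libraries in one fit its adjusted p was 0.0111. With other libraries left out the day 3 adjusted p was as high as 0.39. At day 6 the adjusted p was 0.0532, 0.0758, 0.0837 and 0.0721 without DKI replicate 1, DKI replicate 3, WT replicate 1 and WT replicate 3, and 0.0963 without the filter on RPKM.

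**Figure D3:**
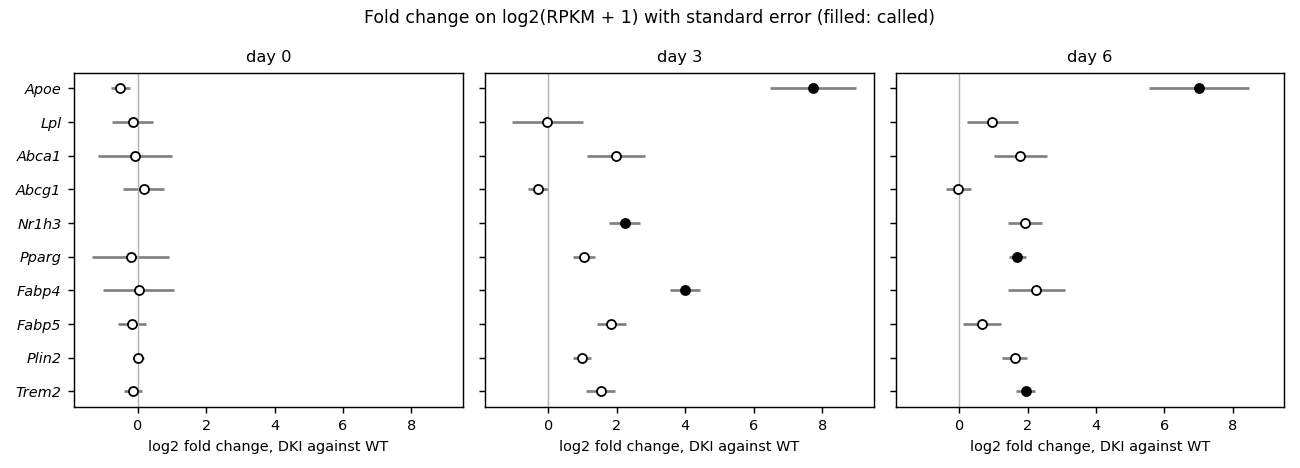
Log2 fold change of each gene in DKI against WT at days 0, 3 and 6 (x axis), with bars for the SE of 3 against 3 libraries and filled points for called genes, on the scale of log2(RPKM + 1). *Nr1h3* was not fitted at day 0. *Apoe* stands at 7.74 and 7.02 at days 3 and 6, and the filled points are *Apoe*, *Nr1h3* and *Fabp4* at day 3 and *Apoe*, *Pparg* and *Trem2* at day 6.

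Since same-numbered libraries of both genotypes moved together around their group means, the ratio within each pair was also taken. In the day 3 pairs DKI exceeded WT in all 3 pairs for the same 8 genes whose groups did not overlap, and for 20.9% of all fitted genes. Where groups do not overlap this outcome is fixed, so for such genes it adds no evidence on either day. In the day 6 pairs DKI exceeded WT in all 3 pairs for 8 genes and for 18.4% of all fitted genes, with *Lpl* added and *Fabp5* lost, since *Fabp5* in replicate 3 was 0.678 times the WT value. The pair of replicate 1 had the highest ratio at day 3 for *Abca1* (8.91), *Nr1h3* (26.6), *Fabp5* (7.19) and *Plin2* (2.75), and the lowest for *Lpl* (0.506) and *Pparg* (1.95). *Ly6c2* was 775 RPKM in the DKI library and 11.2 RPKM in the WT library of that pair. *Col1a1*, a marker of marrow stroma, was 4.49 RPKM in that DKI library and at most 0.205 RPKM in the other day 3 libraries. *Col1a2* was 3.98 RPKM in it, and both collagens were higher still in DKI day 6 replicate 1, at 17.6 and 13.1 RPKM. *Lepr* of the same list went the other way, with 5.56, 0.605 and 3.52 RPKM in WT and at most 0.054 RPKM in DKI MDCs at day 3. All 6 stromal markers summed to between 0.966 and 9.78 RPKM in DKI and between 1.01 and 6.55 RPKM in WT MDCs at day 3, and to between 0.854 and 32.0 RPKM in DKI and between 2.44 and 10.3 RPKM in WT MDCs at day 6. Their part in the result was not tested. Without that DKI library 6 members were called at day 3 in place of 3, and 7.36% of all fitted genes were, with log2 fold changes of 6.64 for *Apoe* (adjusted p = 0.0278), 3.53 for *Fabp4* (adjusted p = 0.00745) and 1.73 for *Nr1h3* (adjusted p = 0.0244) beside *Pparg*, *Fabp5* and *Trem2*. Both counts include *Nr1h3*, which was fitted only through the DKI group and is not taken as support. Without DKI day 6 replicate 1 none of the 3 members called at day 6 kept its call, and 2.56% of all fitted genes were called, with 5.88 for *Apoe* (adjusted p = 0.0798), 1.70 for *Pparg* (adjusted p = 0.0536) and 1.94 for *Trem2* (adjusted p = 0.0532). The values not yet given were 0.94 for *Plin2* and -0.30 for *Abcg1* at day 3, and at day 6 1.69 for *Plin2*, 1.40 for *Nr1h3*, 1.79 for *Fabp4*, 0.32 for *Fabp5* and 0.36 for *Abcg1*, whose sign had turned, and none of them was called.

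**Figure D4:**
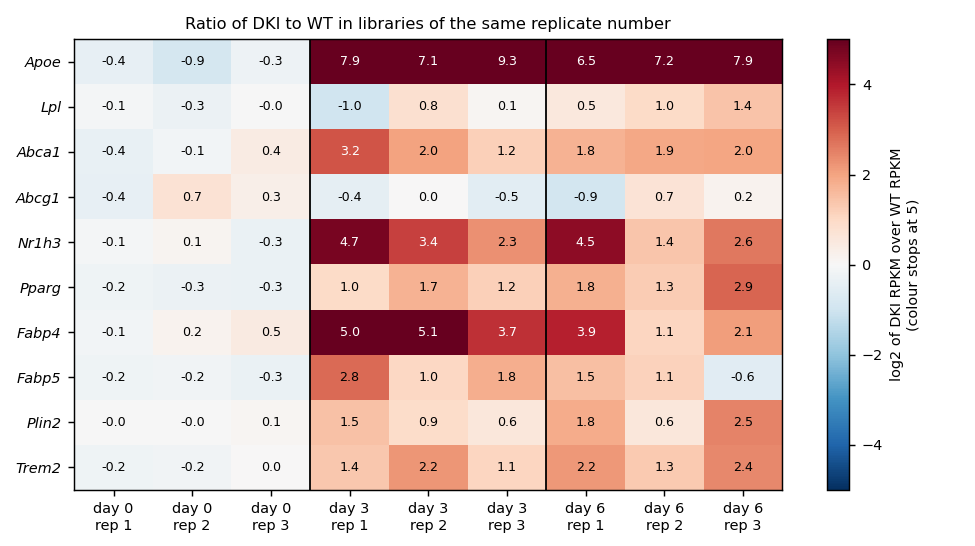
Heat map of the log2 ratio of DKI to WT RPKM in libraries of the same replicate number, with genes as rows and the 9 pairs as columns (red, DKI higher; blue, DKI lower; colour stops at 5). At day 0 all log2 ratios lie within 1 of 0. At days 3 and 6 *Apoe* is the highest of the 10 genes in every pair, and *Lpl* and *Abcg1* hold most of the ratios below 0.

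From day 0 to day 3, WT and DKI cells shared a rise in *Lpl*, *Abcg1* and *Fabp5* and parted on *Apoe*. In WT cells 4 members were called, near the share of all genes, of which 43.1% of 9938 were called. *Nr1h3* was not fitted there. The calls over all genes in WT were 2013 higher and 2270 lower, and the share called higher in both genotypes was not counted. *Apoe* fell by 4.44 on the log2 scale (SE 0.84, adjusted p = 0.0053), and *Lpl* rose by 3.00 (SE 0.66, adjusted p = 0.00929), *Abcg1* by 2.13 (SE 0.55, adjusted p = 0.018) and *Fabp5* by 1.85 (SE 0.30, adjusted p = 0.00291). *Plin2* had a log2 fold change of -0.02 (SE 0.22), with a sign that turned when libraries were centred on their medians (0.07). *Trem2* was at 0.93 (SE 0.34, adjusted p = 0.0605), with an adjusted p of 0.0405 after quantile normalization and 0.0429 with all 18 libraries in one fit. *Pparg*, at 0.501-fold (adjusted p = 0.321), reached a log2 fold change of -1.93 (adjusted p = 0.00943) without WT day 0 replicate 3, where it had been almost absent. With other libraries left out its adjusted p was as high as 0.922. The adjusted p of *Abcg1* was 0.0538, 0.0673, 0.0566 and 0.0538 without WT day 3 replicate 1, WT day 3 replicate 3, WT day 0 replicate 2 and WT day 0 replicate 3. Without the filter on RPKM it was 0.0844, and that of *Lpl* was 0.0561. With the libraries of both days left out for a replicate number, *Apoe* was at -3.76 (adjusted p = 0.0654) without replicate 2, the adjusted p of *Lpl* was 0.0775 without replicate 3, and that of *Abcg1* was 0.0675 and 0.145 without replicates 2 and 3.

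In DKI cells 7 members were called from day 0 to day 3, and all rose, where 34.2% of 9922 genes were called and 13.1% were called higher. The calls over all genes were 1297 higher and 2097 lower, and 1743 higher and 1622 lower with libraries centred on their medians. *Fabp5* rose by 3.87 on the log2 scale (SE 0.49, adjusted p = 0.00316), *Apoe* by 3.81 (SE 0.93, adjusted p = 0.0215), *Fabp4* by 3.79 (SE 0.78, adjusted p = 0.0127) and *Lpl* by 3.11 (SE 0.96, adjusted p = 0.0449). *Trem2* rose by 2.59 (SE 0.34, adjusted p = 0.00335), *Abcg1* by 1.65 (SE 0.33, adjusted p = 0.0112) and *Plin2* by 0.94 (SE 0.23, adjusted p = 0.022). *Abca1*, *Nr1h3* and *Pparg*, whose levels at day 0 ranged widely between replicates, were at 2.08, 1.61 and 0.25 and were not called. *Nr1h3* reached an adjusted p of 0.0484 without DKI day 3 replicate 3 and of 0.0285 with all 18 libraries in one fit. With other libraries left out it was as high as 0.238.

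The calls of *Apoe*, *Lpl* and *Plin2* in DKI cells were lost without any of several single libraries. The adjusted p of *Apoe* was 0.0665, 0.0633 and 0.0618 without DKI day 0 replicates 1, 2 and 3. That of *Lpl* was 0.105, 0.0772 and 0.13 without these and 0.109 and 0.113 without DKI day 3 replicates 2 and 3. That of *Plin2* was 0.0655 without DKI day 3 replicate 2 and 0.0667 and 0.0686 without DKI day 0 replicates 1 and 2. Without the filter on RPKM the adjusted p was 0.0904 for *Apoe*, 0.148 for *Lpl*, 0.0616 for *Fabp4* and 0.0541 for *Plin2*. With the libraries of both days left out for a replicate number, that of *Fabp4* was 0.0909 without replicate 2 and 0.0512 without replicate 3, and that of *Abcg1* was 0.0856 and 0.0992.

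Whether the genotype effect itself differed between days was tested as an interaction over the 12 libraries of days 0 and 3. *Apoe* was called, with a difference in log2 fold change of 8.25 (SE 1.40, adjusted p = 0.012), where 2.91% of 10212 genes were called and 1.2% were called with a positive difference. The other 9 members were not called in this fit. With the replicate number within each day as a block, 10.2% of all fitted genes and 6 members were called, *Apoe* (adjusted p = 0.00155), *Fabp4* at 3.96 (0.00319), *Pparg* at 1.25 (0.0191), *Trem2* at 1.66 (0.0219), *Fabp5* at 2.02 (0.0355) and *Nr1h3* at 2.26 (0.0375). *Nr1h3* passed the filter on RPKM only through DKI MDCs of day 3, so its call is not counted as support. In the fit without the block, *Trem2* reached an adjusted p of 0.0471 without WT day 3 replicate 3 and was as high as 0.72 with other libraries left out. *Plin2*, which rose in DKI and was not called in WT cells, was not called in the interaction with or without the block. Without the filter on RPKM the adjusted p of *Apoe* was 0.0509, and it was 0.147 without replicate 2 and 0.189 without replicate 3.

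From day 3 to day 6 no member was called in WT MDCs, where *Nr1h3* was not fitted, or in DKI MDCs. In WT and DKI, 0% of 9613 and 0% of 9540 genes were called with limma (722 and 93 had an unadjusted p under 0.05). *Fabp4* in WT MDCs was higher in each library of day 6 than in each of day 3, with a log2 fold change of 2.37 (SE 0.48, adjusted p = 0.596), and so was *Fabp5* at 1.17 (SE 0.47). In DKI MDCs *Pparg* at 0.91 (SE 0.33) and *Trem2* at 0.77 (SE 0.31, both adjusted p = 0.999) did not overlap between the days. Values of days 3 and 6 did not overlap for 14.3% of all fitted genes in WT and for 4.43% in DKI MDCs. The genotype effect was not called as different between days 3 and 6 for any member, and 0% of 9985 genes were called (89 with an unadjusted p under 0.05). Its difference was -1.73 (SE 1.03) for *Fabp4* and 0.64 (SE 0.48) for *Plin2*.

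RPKM is scaled by gene length, so the levels of the genes can be set in order. In DKI MDCs at day 6 the order of the means was *Apoe* (3781 ± 4898, SD, n = 3), *Lpl* (1589 ± 1015), *Trem2* (301 ± 3.08), *Plin2* (264 ± 116), *Fabp4* (95.7 ± 65.5), *Abcg1* (84.3 ± 33.9), *Abca1* (61.6 ± 42.1), *Fabp5* (60.3 ± 28.2), *Pparg* (12.8 ± 2.97) and *Nr1h3* (7.48 ± 5.82). *Apoe* and *Lpl*, *Trem2* and *Plin2*, the 4 genes from *Fabp4* to *Fabp5*, and *Pparg* and *Nr1h3* differed from their neighbours by less than the larger SD of each pair of neighbours. *Apoe* came first through replicate 1 (9422 RPKM), while in replicates 2 and 3 *Lpl* was higher (1948 and 2377 RPKM against 600.3 and 1321 RPKM). In WT MDCs at day 6 *Lpl* came first (729 ± 366 RPKM), followed by *Plin2*, *Trem2* and *Abcg1* (83.2 ± 28.2, 81.9 ± 34.0 and 81.6 ± 18.5 RPKM), and *Apoe* (38.8 ± 59.1 RPKM) stood below *Fabp5* (41.4 ± 29.0 RPKM).

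The other genes of these pathways were followed in 6 lists. Their calls, 9 at day 3 and 8 at day 6 over all lists, depended on the filter and on single libraries. Without the filter on RPKM they were 1 and 0. They were 2 to 3 without any 1 WT library and 4 without DKI replicate 3 at day 3, and 2 without WT replicate 1 or 3, 3 without DKI replicate 3 and 4 without DKI replicate 1 at day 6. They rose to 13 without DKI replicate 2 at day 6, and to 12 at day 3 and 14 at day 6 with all 18 libraries in one fit. Without both libraries of replicate 2 or 3 at day 3, or of replicate 3 at day 6, they were 0. Any call, in either direction, was made for 7.42% of all fitted genes at day 3 and 7.54% at day 6. Among the other genes of cholesterol efflux and LXR signalling, 1 of 13 fitted was called at day 3 and 0 of 14 at day 6, with medians of -0.11 and -0.16, beside -0.11 and -0.17 for all genes. The gene called was *Rxra*, the partner receptor of LXR and PPAR, at 26.8, 19.9 and 24.4 RPKM in WT and at 40.3, 37.0 and 40.6 RPKM in DKI MDCs at day 3 (log2 fold change 0.71, SE 0.15, adjusted p = 0.0452). *Srebf1*, *Scd2*, *Mylip* and *Pltp*, named here as classical LXR targets, were not called, with log2 fold changes of -0.11, -1.12, 1.06 and 3.23 at day 3 and -0.21, -1.15, 0.58 and 2.78 at day 6.

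Of 10 fitted genes of lipid and lipoprotein uptake, 1 was called at day 3 and 3 at day 6. *Msr1*, the scavenger receptor of modified low-density lipoprotein, was at 58.5, 75.8 and 92.7 RPKM in WT and at 183, 427 and 274 RPKM in DKI MDCs at day 3 (log2 fold change 1.89, SE 0.35, adjusted p = 0.0289). It was at 66.8, 92.8 and 36.0 RPKM in WT and at 214, 268 and 296 RPKM in DKI MDCs at day 6 (2.06, SE 0.36, adjusted p = 0.0282). *Slc27a1*, a fatty acid transporter, rose by 0.96 at day 6 (adjusted p = 0.0469). *Olr1*, another receptor of oxidized low-density lipoprotein, went the other way and fell by 2.56 on the log2 scale at day 6 (SE 0.25, adjusted p = 0.00803), from 31.0 ± 8.77 RPKM in WT to 4.34 ± 0.858 RPKM in DKI MDCs. *Cd36* was not called, at -0.53 and 0.96.

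Of 11 fitted genes of lipid droplets and lipolysis, 3 were called at day 3 and 1 at day 6, and they did not move together. *Nceh1*, which hydrolyses cholesterol esters, was higher in DKI MDCs by 1.63 (SE 0.20, adjusted p = 0.0105) at day 3 and by 1.83 (SE 0.32, adjusted p = 0.0295) at day 6. *Lipe*, the hormone-sensitive lipase, was at 56.9, 43.0 and 39.4 RPKM in WT and at 18.2, 12.5 and 12.2 RPKM in DKI MDCs at day 3, and fell by 1.64 (SE 0.22, adjusted p = 0.0131). *Mgll*, the monoglyceride lipase, was at 13.9, 13.7 and 22.4 RPKM in WT and at 0.522, 1.21 and 3.09 RPKM in DKI MDCs, and fell by 2.85 (SE 0.39, adjusted p = 0.0138). At day 6 their adjusted p was 0.0661 and 0.0629. *Mgll* passed the filter on RPKM at day 3 only through the WT group, so its call there is not counted as support.

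All 10 fitted genes of lysosomal lipid release had a log2 fold change above 0 on both days, with medians of 0.53 and 0.66, but only *Npc1*, the lysosomal cholesterol exporter, was called, at day 3 (0.85, SE 0.15, adjusted p = 0.0277). Above 0 were 38.6% of all fitted genes at day 3 and 33.5% at day 6. Of 13 fitted genes of the PPAR family and fatty acid oxidation, other than *Pparg*, none was called on either day. Their log2 fold changes were below 0 for 12 at day 3 and for 13 at day 6, with medians of -0.29 and -0.23 beside -0.11 and -0.17 for all genes.

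Among the genes of TREM2 signalling and lipid-associated macrophages, other than *Trem2*, 3 of 16 fitted were called at day 3 and 4 of 17 at day 6, all higher in DKI MDCs, with medians of 0.45 and 0.53. They were the cathepsins *Ctsl* (log2 fold change 3.50, SE 0.51, adjusted p = 0.0165), *Ctsd* (2.43, SE 0.44, adjusted p = 0.0281) and *Ctsb* (2.39, SE 0.44, adjusted p = 0.0292), which degrade protein in lysosomes, and at day 6 also *Clec7a*, the β-glucan receptor (1.53, SE 0.29, adjusted p = 0.0341). *Ctsl* was at 91.0, 73.1 and 276 RPKM in WT and at 1419, 1656 and 1167 RPKM in DKI MDCs at day 3. These genes are lysosomal or pattern-recognition genes and not parts of the TREM2 signalling chain. *Tyrobp*, *Syk* and *Plcg2*, which transmit the signal of *Trem2*, were not called, with 0.54, 0.35 and -0.24 at day 3 and 0.53, 0.09 and -0.26 at day 6. In this list 11 genes were above 0 and 5 below it at day 3, and 13 and 4 at day 6. *Itgax*, named after its values were seen, went the other way and was not called. It was at 411, 630 and 718 RPKM in WT and at 30.0, 321 and 191 RPKM in DKI MDCs at day 3. The difference between days 0 and 3 was called for *Ctsl*, *Ctsd* and *Ctsb* with a positive sign and for *Mgll* with a negative sign, at 3.53, 2.50, 2.46 and -2.94. *Mgll* was at most 0.761 RPKM at day 0 and passed the filter only through WT MDCs of day 3. Its call is therefore not counted as support.

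**Figure D5:**
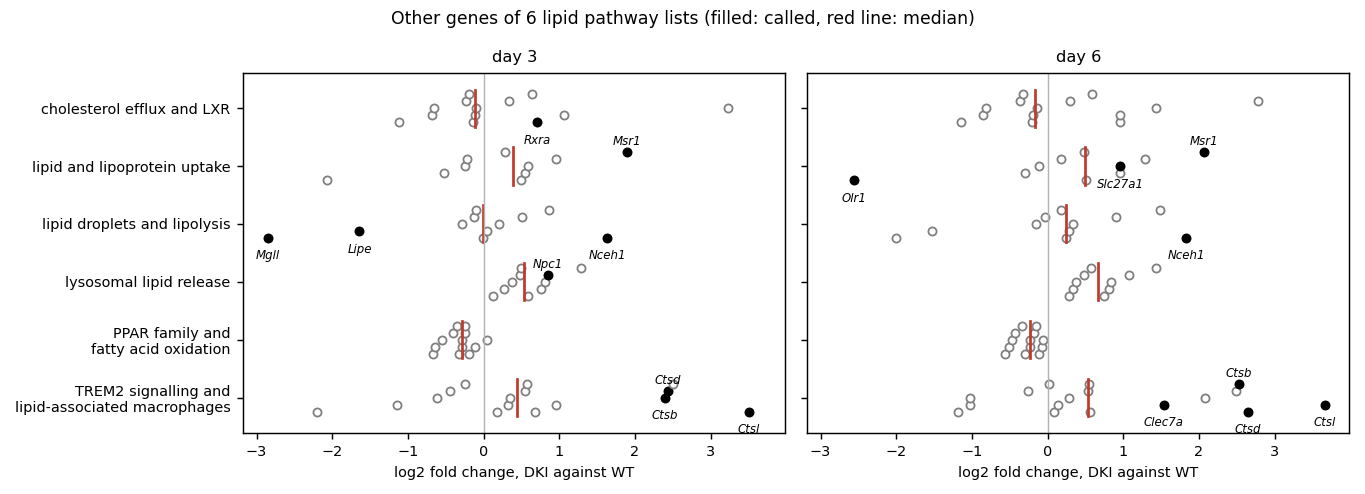
Change in DKI against WT MDCs at days 3 and 6 on the log2 scale (x axis) of the fitted genes of 6 lipid pathway lists (rows), the 10 genes themselves not included, with filled and named points for called genes and a red line at the median of each list. The lysosomal list lies wholly to the right of 0, the list of fatty acid oxidation lies almost wholly to the left of it, and the called genes farthest from 0 are the cathepsins above it and *Mgll* and *Olr1* below it.

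For each gene, the table was searched for the gene with the most similar profile, by the mean absolute difference of log2(RPKM + 1) after centring each gene over the 18 libraries. *Plin2* lay closest to *Tcirg1* (0.214), *Trem2* to *Tspan4* (0.259), *Nr1h3* to *Lgals8* (0.345), *Abcg1* to *Marchf8* (0.38) and *Pparg* to *Gpr137b-ps* (0.385). *Fabp5* lay closest to *Fxyd2* (0.504), *Lpl* to *Cd81* (0.608), *Fabp4* to *Lgmn* (0.64) and *Abca1* to *Peak1* (0.715). The gene closest to *Apoe* was *Irf7*, at a distance of 1.23. The measure is not scaled and is larger for genes that vary more, so the distances are not compared between the 10 genes. None of the 10 closest genes was itself one of the 10 members.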

How the data were processed

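Single-end reads of 18 libraries were aligned by the authors to mm10 with Subread and counted on RefSeq genes with featureCounts (named in the submitters' processing notes, without versions), and the authors deposited RPKM values, with 1 column per library and no other columns. Of 20298 Entrez identifiers, 20082 were found in RefSeq (GRCm38.p6), from which symbols and positions were taken. Strandedness, and what was done with reads that match more than 1 gene, are not given in the sources used here.

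Depth was recovered from 1132 single-exon receptor genes under 1200 bases, whose smallest value in a library was taken as 1 read (3 to 12 genes per library). Of 243 values above 0, 239 were then whole within 0.01 of a read, and whole reads were recovered in all libraries for 10407 of 10417 genes above 2 RPKM (99.9%). The members had between 4 reads (*Fabp4*) and 354189 reads (*Apoe*) in a library, which sets counting error only. No 2 libraries held identical values, and log2(RPKM + 1) correlated between 0.902 and 0.97 within groups.

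Groups were taken from the sample labels. RPKM values are not counts, so log2(RPKM + 1) was fitted with limma 3.58.1 (lmFit, eBayes with trend) in R 4.3.3 on the libraries of the groups compared, over genes with a mean above 2 RPKM in at least 1 group. Calls needed an adjusted p (Benjamini-Hochberg, over all fitted genes) under 0.05 and a change of more than 1.5-fold, as in the study's own tests. A difference between days was tested as an interaction. On simulated day 3 data with 200 changed genes among 9523, 41% of 2-fold and 78% of 4-fold changes were recovered, and 6 of 125 calls were false. Alternatives were the replicate block, a pseudocount of 0.1, no filter, median centring, quantile normalization, all 18 libraries in one fit, each library or replicate number left out, and limma voom on the recovered reads, which was chosen after seeing the data.

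The replicate numbers come from the labels. The deviations from the group means correlated between same-numbered libraries of both genotypes (0.69 to 0.87 at day 0, 0.16 to 0.37 at day 3 and 0.34 to 0.41 at day 6), and between days 3 and 6 of WT (0.12 to 0.68) and DKI (0.32 to 0.74), so the numbers were taken as pairing them.

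The members, pathway lists and marker lists were chosen with earlier results of these data known. The genes named are the members, up to 4 called genes with the largest change per list and day, and the closest gene to each member, and further genes are marked as named for their role or after their values were seen. Figures were made in Python 3.11.15 with matplotlib 3.10.9.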

Additional observations from a re-analysis of the deposited data

Results flagged for a closer look

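The genotype effect on *Apoe* differed between day 0 and day 3 by the interaction term of the limma fit over 12 libraries (difference in log2 fold change 8.25, standard error 1.40, adjusted p = 0.012). DKI was below WT in 3 of 3 same-numbered pairs at day 0 and above WT in 3 of 3 pairs at day 3. *Apoe* was the only one of the 10 genes for which this difference was called in the fit without a block. The call was lost without the filter on RPKM (adjusted p = 0.0509), without replicate 2 (8.58, adjusted p = 0.147) and without replicate 3 (7.90, adjusted p = 0.189).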

How the results depend on the processing

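Depth was at least 29.5 M reads and limits the lowest values most, with 4 reads of *Fabp4*, 23 of *Nr1h3* and 43 of *Pparg* in a library at the fewest. The count of members called in DKI against WT MDCs was 3 at day 3 and 3 at day 6. Without the filter on RPKM it was 0 and 0, over more genes. With all 18 libraries in one fit it was 6 at day 3, and with voom on the recovered reads 1 at day 3. With libraries left out it ranged from 0 to 6 at day 3 and from 0 to 5 at day 6. From day 0 to day 3 it was 4 in WT (2 without the filter, 2 to 4 with libraries left out) and 7 in DKI (3 without the filter, 2 to 7 with libraries left out). For the interaction of days 0 and 3 it was 1 (0 without the filter, 6 with the replicate block, 0 to 2 with libraries left out). At day 0 and between days 3 and 6 it was 0 under all alternatives. Except for the filter and the left-out libraries, the cause of these shifts was not tested.

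Over all genes, 723 calls at day 3 became 139 without the filter and 1350 with all 18 libraries in one fit, 742 at day 6 became 38 and 1545 and, with voom, 464, 3394 from day 0 to day 3 in DKI cells became 2190 without the filter, and 297 for the interaction became 166 without the filter, 91 with voom and 1040 with the replicate block. Without 1 library, the calls at day 3 were 197 to 216 without a WT library, 415 and 432 without DKI replicates 2 and 3 and 715 without DKI replicate 1. At day 6 they were 90 without DKI replicate 3 (the share without DKI replicate 1 is in the report), 106 and 107 without WT replicates 1 and 3, and 984 and 584 without DKI and WT replicate 2. Without both libraries of replicate 2 or 3 at day 3, or of replicate 3 at day 6, limma called 0 genes (1533, 1719 and 1436 with an unadjusted p under 0.05). From day 0 to day 3 in DKI cells the count was 1976 without DKI day 0 replicate 2 and 705 and 1034 without replicates 2 and 3 of both days. For the interaction it was 125, 171 and 177 without DKI day 0 replicates 2, 3 and 1, 152 and 189 without WT day 0 replicates 2 and 3, and 171, 4 and 35 without all libraries of replicates 1, 2 and 3.

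The replicate block changed the calls of *Nr1h3* at day 3, *Abca1* at day 6 and 5 members in the interaction, as given in the report, and no other call in comparisons whose libraries are paired. Replicate numbers did not pair days 0 and 3 (correlation -0.21 to 0.0 in WT and -0.01 to 0.18 in DKI), and there the block gave 5 member calls in WT and 8 in DKI. With this block 38.1% of all fitted genes were called in WT and 32% in DKI. The numbers called paired were not stated to mark a shared animal.

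The 18 called member fold changes kept their sign under all alternatives, of which 81 of 294 ended a call. Of the uncalled ones, these changed sign when libraries were left out. At day 0, DKI against WT ranged from -0.63 to 0.34 for *Lpl*, -1.06 to 0.76 for *Abca1*, -0.24 to 0.81 for *Abcg1*, -1.14 to 0.70 for *Pparg*, -0.76 to 0.90 for *Fabp4*, -0.51 to 0.15 for *Fabp5*, -0.10 to 0.15 for *Plin2* and -0.31 to 0.10 for *Trem2*. *Lpl* at day 3 ranged from -0.75 to 1.09 and *Abcg1* at day 6 from -0.36 to 0.42. From day 0 to day 3 in WT, *Abca1* ranged from -1.04 to 0.79, *Fabp4* from -0.99 to 0.70 and *Plin2* from -0.18 to 0.18, and in DKI *Pparg* from -0.66 to 1.32. From day 3 to day 6 in WT, *Apoe* ranged from -0.37 to 2.10, *Lpl* from -0.69 to 0.48, *Abcg1* from -0.08 to 0.42 and *Trem2* from -0.12 to 0.95. In DKI, *Apoe* ranged from -0.81 to 1.42, *Lpl* from -0.17 to 1.71, *Nr1h3* from -0.52 to 0.51, *Fabp4* from -0.11 to 1.52, *Fabp5* from -0.37 to 0.49 and *Plin2* from -0.10 to 0.79. In the interactions, *Lpl* ranged from -0.60 to 1.23 for days 0 and 3, and for days 3 and 6 *Apoe* from -1.85 to 0.70, *Lpl* from -0.12 to 1.76, *Abca1* from -0.81 to 0.74, *Nr1h3* from -0.84 to 0.19 and *Trem2* from -0.04 to 1.06.

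Other settings turned the sign of values near 0. Centring on the median gave 0.00 for *Plin2* at day 0, 0.05 for *Lpl* at day 3, 0.12 for *Abcg1* at day 6, 0.07 for *Plin2* from day 0 to day 3 in WT and 0.06 for *Fabp5* from day 3 to day 6 in DKI. Quantile normalization gave 0.11 for *Abcg1* at day 6, 0.02 for *Plin2* from day 0 to day 3 in WT, 0.09 for *Fabp5* from day 3 to day 6 in DKI and -0.01 for *Lpl* in the interaction of days 0 and 3. *Fabp4* from day 0 to day 3 in WT was 0.17 with a pseudocount of 0.1 and 0.11 with voom, and *Nr1h3* from day 3 to day 6 in DKI was -0.07 with voom.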

Other observations

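*Apoe* lies in a cluster with *Apoc1*, *Apoc4* and *Apoc2* on chromosome 7, and the neighbours, which are in the list of efflux genes, are named here after their values were seen. *Apoc1* was between 2.12 and 4.61 RPKM in the 6 libraries of day 0 and lower in the 12 libraries of days 3 and 6. It was at 0.0525, 0 and 0 RPKM in WT and at 1.083, 0.141 and 0.119 RPKM in DKI MDCs at day 3, and at 0, 0.0431 and 0 RPKM in WT and at 0.247, 0.0949 and 0.161 RPKM in DKI MDCs at day 6. These are at most 1 read in a WT library and, outside DKI day 3 replicate 1 with 23 reads, 2 to 4 reads in a DKI library, so no difference is read from them. *Apoc4* was at most 0.548 RPKM in any library. *Apoc2* was at 8.09, 44.0 and 14.2 RPKM in WT and at 46.6, 9.18 and 47.4 RPKM in DKI MDCs at day 3, with overlapping groups.

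*Pltp*, the phospholipid transfer protein and an LXR target, had the highest log2 fold change of the efflux list without being called, 3.23 (adjusted p = 0.103) at day 3 and 2.78 (adjusted p = 0.127) at day 6. It was at 7.77, 0.692 and 6.46 RPKM in WT and at 112, 10.8 and 67.6 RPKM in DKI MDCs at day 3. DKI exceeded WT in all 3 pairs, and replicate 2 was the lowest of both genotypes.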
